A study of Mus musculus with 6 samples.

Results

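The transcripts described here are 37 genes of the cells that build and line the gut wall, measured in libraries made from sorted intestinal lymphocytes. They were chosen by gene symbol in 3 lineages: 18 genes of fibroblasts and extracellular matrix, 7 of smooth muscle and pericytes, and 12 of blood and lymphatic endothelium. All 37 had a row among the 25075 rows of the count table, and all 37 were among the 15261 genes with enough counts to be tested. Col5a1, Col6a3, Pdgfra, Tagln, Myh11, Des, Cnn1 and Prox1 had fewer than 10 counts in every library labelled Batf-deficient and passed that filter through the labelled control libraries. Fbn1, Pdpn and Cdh5 reached 10 counts there in replicate 3 alone, and also passed through the labelled control libraries.

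The study profiled group 3 innate lymphoid cells (ILC3s), lymphocytes without rearranged antigen receptors that guard the gut barrier with IL-22, from the small intestine of mice on the B6 background. The 3 libraries labelled Batf-deficient came from mice with a floxed Batf gene and PLZF-Cre (Batf fl/fl, Cre+), and the 3 labelled control libraries from mice with the same floxed gene and no Cre (Batf fl/fl, Cre-). Batf encodes a transcription factor of the AP-1 family, and PLZF is a transcription factor of innate lymphoid precursors and of some innate-like T cells, so a Cre driven by it acts from the precursor stage on and not in ILC3s alone. Each library was made by Smart-seq2, a full-length RNA-seq protocol for small inputs, from 2000 cells sorted as Lin-CD90.2+KLRG1- and 2 ng of RNA. CD90 is carried by ILCs and T cells and also by some fibroblasts, and which markers the Lin stain held, and the age and sex of the animals, are not given by the sources at hand. The design text calls the 3 libraries of a group biological replicates and says no more of their origin.

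Fibroblasts of the lamina propria secrete the collagens, small proteoglycans and glycoproteins of the connective tissue, smooth muscle cells contract the wall, and pericytes wrap its capillaries. Endothelial cells line blood vessels and lymphatics and depend on VEGF, angiopoietin and TGF-beta receptors. None of these lineages is an ILC, but single members are shared with lymphocytes: vimentin is the intermediate filament of lymphocytes as well as of mesenchyme, and Pecam1 is carried by many leukocytes as well as by endothelium.

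Most of the stromal and endothelial RNA stood in the labelled control libraries: the members took 0.0459% to 0.0520% of the counts in libraries labelled Batf-deficient and 0.274% to 0.300% in labelled control libraries. Of the 37 members, 34 were lower in the libraries labelled Batf-deficient by edgeR's quasi-likelihood test at a Benjamini-Hochberg adjusted p of 0.05, where 34.1% of all genes tested were called lower. With factors from the trimmed mean of M-values (TMM), 2 members, Vim and Pecam1, were called higher, where 30.2% of all genes were, and both turned lower when libraries were scaled on a panel of 19 lymphoid genes. Pdgfrb was not called. The CPM of the 2 groups, counts scaled to a common library size, did not overlap for 34 members lower in the libraries labelled Batf-deficient, where 36.5% of all genes were separated in that way, and 28 members were called at least 8-fold lower, against 13.5% of all genes. These counts include the members named above that passed the filter through the labelled control libraries. For those members a lower value was close to given in advance. The median log2 fold change, labelled Batf-deficient over labelled control, was -3.93 for the members and 0.02 for all genes tested.

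With the panel scaling the median of all genes moved by -2.31, to -2.30, and 85.6% of all genes were called lower. All 37 members were then lower, with a median of -6.24 and a range from -11.85 for the fitted value of Des to -1.09 for Vim. The panel was chosen with results of these data known, and it sets the lymphoid transcripts of both groups level. In bulk RNA, fewer cells of a type and less RNA per cell cannot be told apart, for any lineage below.

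The target gene went against the labels with TMM factors and with the labels under panel scaling. Batf had 38.3, 41.4 and 41.3 CPM in libraries labelled Batf-deficient, against 15.2, 15.3 and 18.95 CPM in the labelled control libraries. Its log2 fold change was 1.29 (SE 0.16, adjusted p = 1.70e-05 by edgeR) with TMM factors. With panel scaling it was -1.03 (adjusted p = 8.89e-05 by edgeR). Every direction below is therefore between libraries by their labels. The libraries labelled Batf-deficient held 8228513 to 13615895 counts and the labelled control libraries 9080012 to 17334207, so that 3 counts correspond to 0.241 to 0.426 CPM and to 0.156 to 0.283 CPM. Batf-deficient replicates 1 and 2 lay closer to each other than any other pair, with a chi-square of 2.36 per gene against 14.8 to 24.2 for the other pairs within a group.

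RNA of other cells differed between the groups together with the members. The counts of each list below stand against 34.1% of all genes called lower and 30.2% called higher by edgeR when TMM factors were used. Under panel scaling the rate for all genes was 85.6% lower, with 341 genes higher, so a lower call there was the usual outcome. The 10 markers of the sorted population (Il22, Id2, Il7r, Kit, Thy1 and others) were all detected. They were all higher with TMM factors, but 6 higher and 1 lower with panel scaling, whose panel holds 3 of them (Il7r, Thy1 and Ptprc). The list includes Klrg1, whose protein the gate excluded. Together they took 0.955% to 1.02% of the counts in the libraries labelled Batf-deficient and 0.158% to 0.183% in the labelled control libraries. Of 17 pancreatic acinar markers 16 were tested and all 16 were lower, with 0.000899% to 0.00118% of the counts against 7.99% to 8.50%. Try4, Amy2a1 and Ptf1a were at 0 in the libraries labelled Batf-deficient. Ptf1a, which was not tested, had 4, 0 and 20 counts in the labelled control libraries. Of 16 epithelial markers 15 were lower (0.0401% to 0.0494% against 1.66% to 1.76%), led by the keratin Krt8 at 143 ± 8.95 against 3933 ± 190.3 CPM (SD, n = 3 each). Of 10 plasma and B cell markers 7 were lower and 1, Sdc1, was higher, but lower with panel scaling (0.0957% to 0.104% against 1.01% to 1.03%). Of 12 myeloid markers 11 were lower and Fcer1g was higher (0.0657% to 0.0744% against 0.0784% to 0.0830%). Fcer1g, which innate lymphocytes also use, held most of that list's counts in the libraries labelled Batf-deficient, and without it the list took 0.00399% to 0.00489% against 0.0636% to 0.0703%. Of 8 mesothelial markers the 2 tested were lower (0.00118% to 0.00135% against 0.0119% to 0.0125%). Msln, Upk3b and Bnc1, not tested, were at 0 in the libraries labelled Batf-deficient. The labelled control libraries had 0, 12 and 0 counts of Msln, 20, 33 and 0 of Upk3b, and 0, 0 and 2 of Bnc1, so the groups overlapped. Of 10 glial and neuronal markers 6 were tested and 5 were lower (0.00453% to 0.00534% against 0.00887% to 0.0116%). Elavl4, not tested, was at 0 in the libraries labelled Batf-deficient, against 14, 37 and 7 counts. Ret, which was not called, held most of the glial and neuronal counts, and without it that list took 0.000207% to 0.000249% against 0.00368% to 0.00467%. The part of these cells in the members' differences was not tested.

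**Figure D1:**
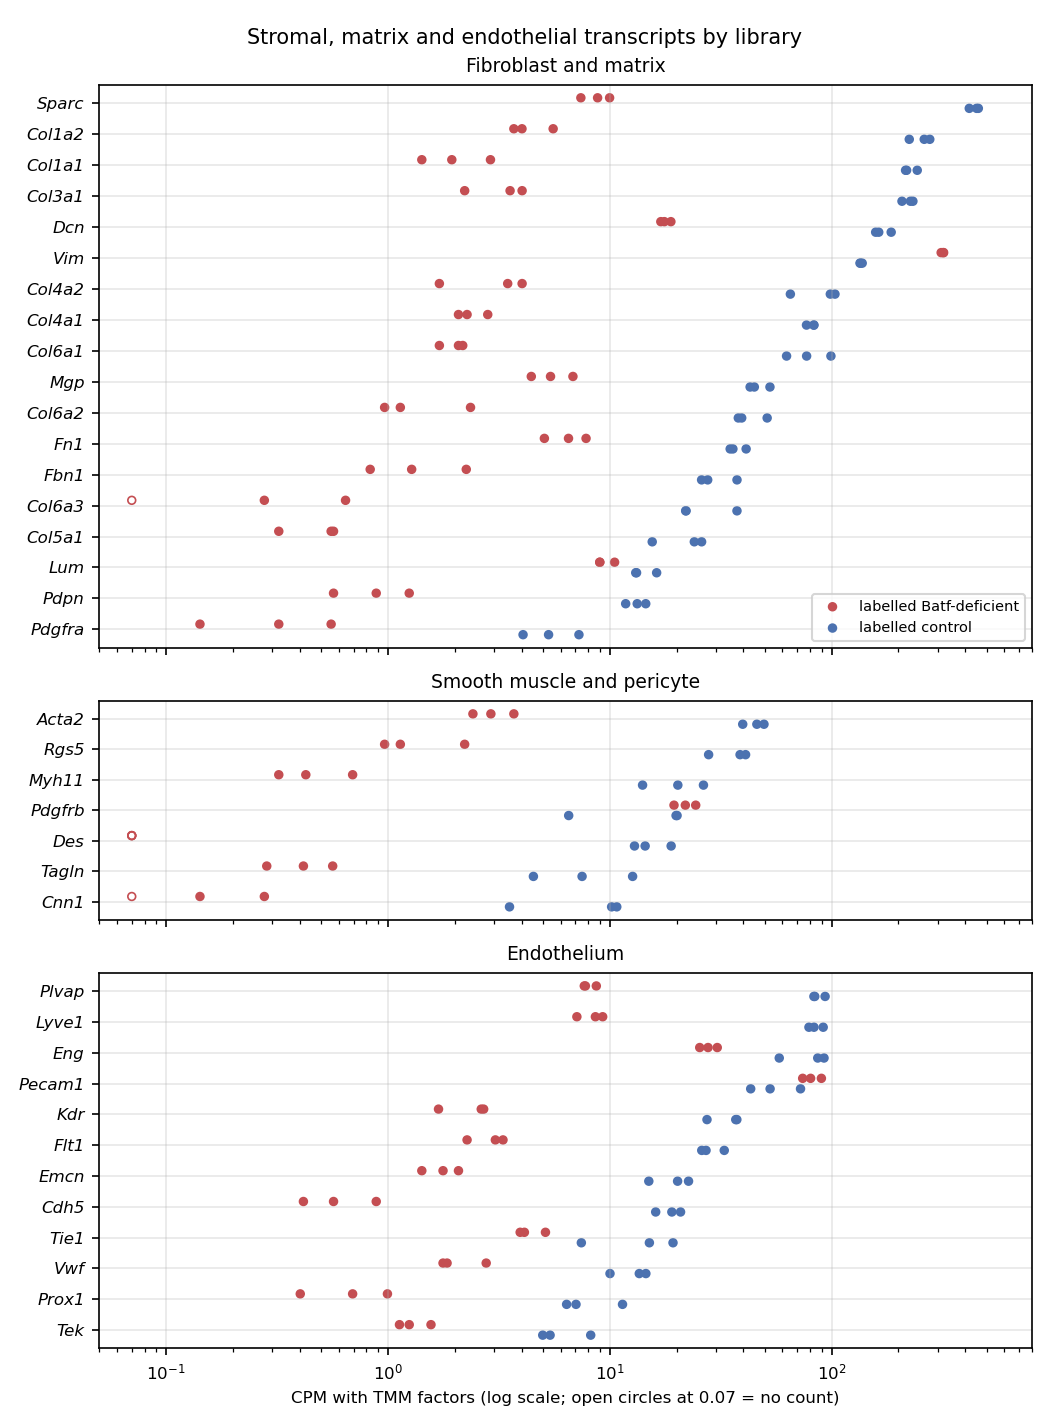
CPM of each of the 37 members in every library on a log axis, by lineage, with the 3 libraries labelled Batf-deficient drawn above the 3 labelled control libraries of each gene. Open circles at the left are libraries with no count. The 2 groups are far apart for most genes (Sparc at 7.41 to 9.98 against 417 to 458 CPM), and Pdgfrb is the member whose groups overlap.

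Among the matrix genes, the largest difference was that of Col1a1, followed by Col6a3 and Col3a1. Collagens carry a Gly-X-Y repeat, in which glycine recurs with 2 other residues between, so that 3 chains can wind into a triple helix. The stretches below show that repeat as it stands in the coding sequence (GENCODE M21, coding strand, 5′ to 3′), with the glycine codons (GGN) in capitals, for the 3 collagen chains with the most counts; the network-forming Col4a1 and the microfibril-forming Col6a1 have the same unit in shorter runs.
Col1a1: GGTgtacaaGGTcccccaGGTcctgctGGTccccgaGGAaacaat
Col1a2: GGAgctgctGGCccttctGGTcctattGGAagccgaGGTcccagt
Col3a1: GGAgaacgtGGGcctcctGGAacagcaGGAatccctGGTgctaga
Col4a1: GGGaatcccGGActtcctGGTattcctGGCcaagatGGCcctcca
Col6a1: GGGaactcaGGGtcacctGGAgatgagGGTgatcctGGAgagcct
These are codons 675 to 689 of Col1a1, 604 to 618 of Col1a2, 680 to 694 of Col3a1, 103 to 117 of Col4a1 and 385 to 399 of Col6a1. The longest unbroken run held 338 repeats in Col1a1 (69.8% of 1453 codons), 339 in Col1a2 (74.1% of 1372) and 344 in Col3a1 (70.5% of 1464), but 87 in Col6a1 (25.5% of 1025) and 40 in Col4a1 (7.2% of 1669). The 45 bases of each stretch differ in sequence between the chains.

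Col1a1 (chromosome 11, 94936224 to 94953042, plus strand, mm10), the larger share of the type I collagen trimer, had 1.94, 1.42 and 2.898 CPM in libraries labelled Batf-deficient, against 218, 215 and 243 CPM in the labelled control libraries. No library of one group came near the other. The log2 fold change was -6.67 (SE 0.19, adjusted p = 5.71e-11 by edgeR). Its partner Col1a2 (chromosome 6, 4504814 to 4541544, plus strand) had 4.02, 3.69 and 5.55 CPM against 277, 224 and 261 CPM, a log2 fold change of -5.80 (SE 0.17, adjusted p = 6.58e-11 by edgeR). Col3a1, the fibrillar collagen of distensible tissues, had 2.22, 3.55 and 4.02 CPM against 227, 232 and 208 CPM (log2 fold change -6.04, SE 0.18, adjusted p = 6.51e-11 by edgeR). All 3 genes were thus present in the libraries labelled Batf-deficient above the level of 3 counts, at a small part of the labelled control level.

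The minor and network collagens followed the same direction. Col5a1, which helps set the width of collagen fibrils, had 0.554, 0.568 and 0.322 CPM against 25.9, 24.04 and 15.5 CPM, with 4 counts in each library labelled Batf-deficient. Of the microfibrillar type VI chains, Col6a1 and Col6a2 had log2 fold changes of -5.30 (SE 0.23) and -4.91 (SE 0.30), and Col6a3 had 2, 0 and 8 counts against 397, 384 and 425, a log2 fold change of -6.18 (SE 0.50). Col4a1 and Col4a2, the chains of the basement membrane network, which endothelial and mural cells also make, had log2 fold changes of -5.05 (SE 0.17) and -4.80 (SE 0.27). Adjusted p-values of these 6 genes by edgeR ran from 2.14e-10 for Col4a1 to 4.16e-07 for Col6a3. Summed over the 9 collagen genes, the libraries labelled Batf-deficient had 19.0, 16.1 and 23.4 CPM, against 1081, 966.5 and 1082 CPM in the labelled control libraries, a 53.5-fold lower mean.

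Paired chains did not all keep their proportion. The counts of Col1a1 per count of Col1a2 were 0.483, 0.385 and 0.522 in the libraries labelled Batf-deficient, against 0.786, 0.962 and 0.930 in the labelled control libraries, so that the groups did not overlap. Pooled, the ratio was 0.484 (95% counting interval 0.349 to 0.664, on 60 and 124 counts) against 0.905 (0.882 to 0.929). The ratio of Col4a1 to Col4a2, which lie head to head on chromosome 8 with 22 bases of exon in common, was 0.878 ± 0.398 against 0.954 ± 0.284 (SD, n = 3 each), and that of Col6a1 to Col6a2 was 1.54 ± 0.685 against 1.85 ± 0.173. Both of the last ratios overlapped between groups, and the intervals cover counting error only.

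Among the glycoproteins, Sparc, a collagen-binding matricellular protein, was the member with the highest level per length in the labelled control libraries (117 CPM per kb of exon). It had 9.98, 8.81 and 7.41 CPM in libraries labelled Batf-deficient, against 458, 417 and 450.2 CPM in the labelled control libraries. Its log2 fold change was -5.68 (SE 0.14), with the lowest adjusted p of the members (adjusted p = 1.83e-11 by edgeR). Fibrillin-1 (Fbn1), the scaffold of elastic microfibrils, had a log2 fold change of -4.28 (SE 0.32, adjusted p = 2.35e-07 by edgeR), but 20.1% of its exonic bases are shared with a gene on the other strand, and the sources used here do not say whether counting used strand. Fibronectin (Fn1), an adhesive protein that macrophages also make, had 6.51, 7.82 and 5.07 CPM against 34.9, 41.2 and 35.9 CPM (log2 fold change -2.55, SE 0.20, adjusted p = 4.02e-07 by edgeR). Mgp, an inhibitor of calcification, had a log2 fold change of -3.10 (SE 0.20, adjusted p = 6.20e-08 by edgeR).

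Of the small leucine-rich proteoglycans, which decorate collagen fibrils, decorin was lower by less than the collagens, and lumican had the smallest difference of the secreted matrix genes. Decorin (Dcn) had 18.9, 17.6 and 16.98 CPM in libraries labelled Batf-deficient, against 158, 186 and 163 CPM in the labelled control libraries (log2 fold change -3.25, SE 0.12, adjusted p = 4.85e-10 by edgeR). Lumican (Lum), which lies 47.0 kb from Dcn on chromosome 10, had 9.01, 10.5 and 9.02 CPM against 13.2, 16.3 and 13.1 CPM. The Lum groups did not overlap, and the log2 fold change was -0.58 (SE 0.22, adjusted p = 0.0388 by edgeR), a call that ended in 4 of the 6 fits that leave out 1 library (adjusted p up to 0.104 without Batf-deficient replicate 1) and stood without control replicates 1 and 3. There were 0.535 ± 0.0595 counts of Lum per count of Dcn in the libraries labelled Batf-deficient, against 0.0838 ± 0.00367 (SD, n = 3 each). Dcn in turn had 9.71, 12.4 and 5.86 counts per count of Col1a1 against 0.725, 0.861 and 0.670.

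The surface genes used to recognise fibroblasts were near the limit of detection in the libraries labelled Batf-deficient. Pdgfra, the PDGF receptor of fibroblasts and their precursors, had 4, 1 and 4 counts there, or 0.554, 0.142 and 0.322 CPM, against 7.26, 4.06 and 5.30 CPM in the labelled control libraries (log2 fold change -3.99, SE 0.57, adjusted p = 6.63e-05 by edgeR). Podoplanin (Pdpn), a mucin-like protein of fibroblastic reticular cells and lymphatic endothelium, had 1.25, 0.568 and 0.885 CPM against 14.5, 11.8 and 13.3 CPM (log2 fold change -3.86, SE 0.36, adjusted p = 1.63e-06 by edgeR).

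Vim went the other way with TMM factors. It had 319.7, 311.6 and 318.5 CPM in libraries labelled Batf-deficient, against 135.0, 137 and 134 CPM in the labelled control libraries. The groups did not overlap, and the log2 fold change was 1.22 (SE 0.09, adjusted p = 1.57e-07 by edgeR) with TMM factors but -1.09 with panel scaling. Vim alone was 81.8% ± 0.164 of the fibroblast and matrix counts in the libraries labelled Batf-deficient, against 7.01% ± 0.362 in the labelled control libraries (SD, n = 3 each). The summed CPM of this lineage was 387 ± 5.08 against 1937 ± 74.9, a 5.01-fold lower mean. Without Vim, which was left out with the outcome known, it was 70.3 ± 0.968 against 1801 ± 76.5, a 25.6-fold lower mean.

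**Figure D2:**
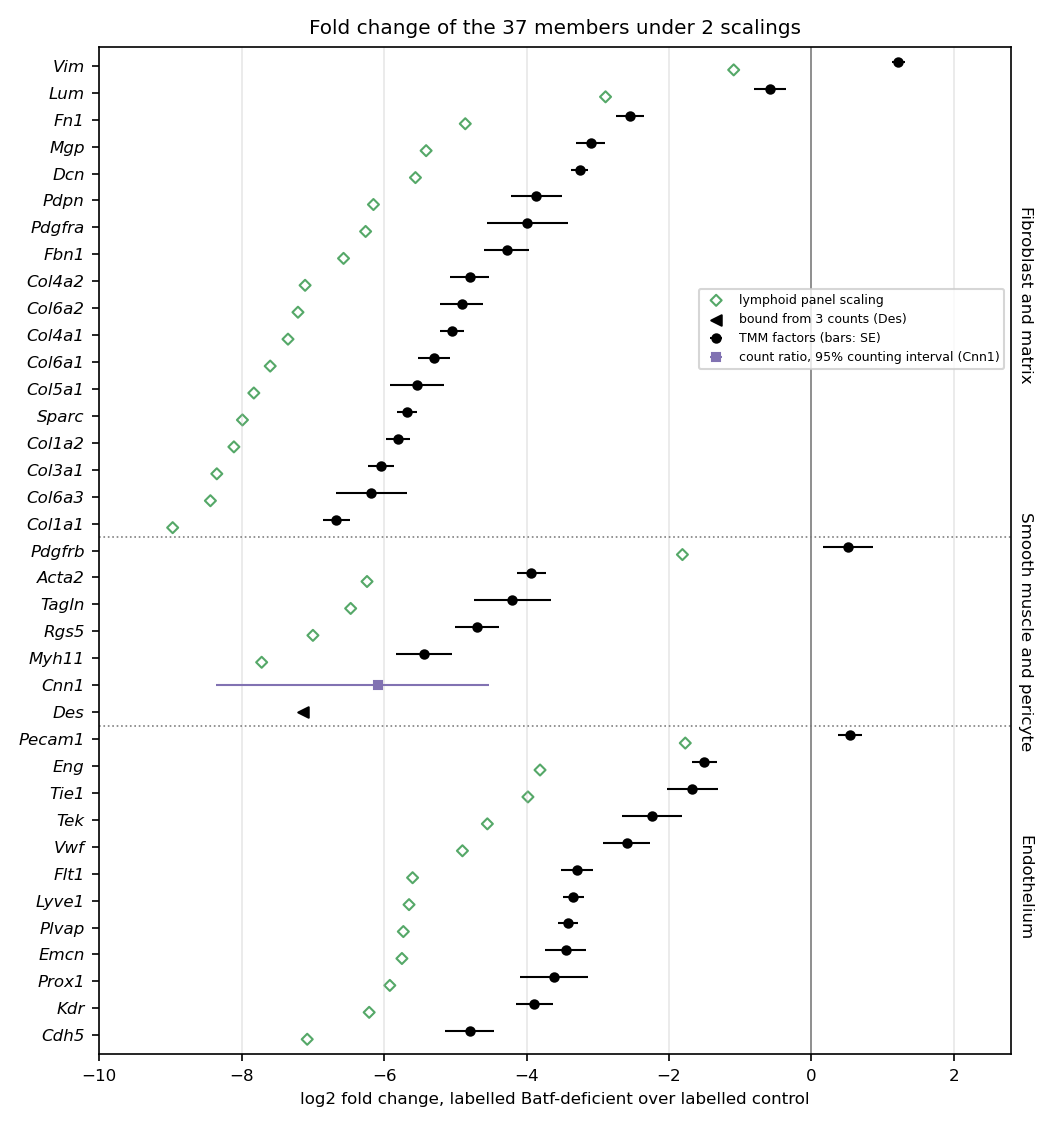
Log2 fold change of each member, labelled Batf-deficient over labelled control, with TMM factors (filled points, bars are SE) and with panel scaling (open diamonds); Des is drawn at its bound from 3 counts and Cnn1 as the ratio of counts with its 95% counting interval, both with no diamond. Vim, Pdgfrb and Pecam1 lie above 0 with TMM factors and below 0 with panel scaling, and the other 34 members lie below 0 wherever they are drawn.

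The contractile genes were all lower in the libraries labelled Batf-deficient, where Des was not detected. Desmin (Des; chromosome 1, 75360329 to 75368579, plus strand, mm10), the intermediate filament of muscle, had no count in any of them, against 12.9, 14.4 and 18.9 CPM in the labelled control libraries. Against a floor of 3 counts over the group it was at least 141.5-fold lower. Calponin (Cnn1), an actin-binding protein of differentiated smooth muscle, had 2, 1 and 0 counts against 114, 178 and 68, a ratio of labelled control over labelled Batf-deficient of 67.6 (95% counting interval 22.96 to 329.5). Myh11, the smooth muscle myosin heavy chain, had 0.693, 0.426 and 0.322 CPM against 14.1, 20.3 and 26.4 CPM (log2 fold change -5.44, SE 0.40, adjusted p = 2.09e-07 by edgeR).

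Smooth muscle actin (Acta2), which pericytes and myofibroblasts carry as well, had 2.91, 3.69 and 2.42 CPM in libraries labelled Batf-deficient, against 46.0, 39.7 and 49.5 CPM in the labelled control libraries (log2 fold change -3.93, SE 0.21, adjusted p = 1.25e-08 by edgeR). Transgelin (Tagln), an actin-bundling protein, had 3, 2 and 7 counts against 48, 131 and 244 (log2 fold change -4.20, SE 0.54, adjusted p = 2.69e-05 by edgeR), but 62.4% of its exonic bases are shared with an antisense gene that has no row of its own in the table. Rgs5, a regulator of G protein signalling that marks pericytes, had 2.22, 1.14 and 0.966 CPM against 38.7, 40.9 and 27.9 CPM (log2 fold change -4.69, SE 0.31, adjusted p = 7.35e-08 by edgeR). The 5 contractile genes and Rgs5 separated the groups without overlap, where 36.5% of all genes tested were lower without overlap. Of these, Tagln, Myh11, Des and Cnn1 passed the filter through the labelled control libraries, so their separation was close to given in advance.

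Pdgfrb, the PDGF receptor that recruits pericytes to vessels, had 21.9, 19.5 and 24.4 CPM in libraries labelled Batf-deficient, against 19.9, 6.53 and 20.1 CPM in the labelled control libraries. The lowest value of the labelled Batf-deficient libraries lay below 2 of the labelled control values, so the groups overlapped. The log2 fold change was 0.51 with TMM factors (SE 0.35, adjusted p = 0.229 by edgeR) and -1.81 with panel scaling. Pdgfrb was 79.9% ± 4.55 of the smooth muscle and pericyte counts in the libraries labelled Batf-deficient, against 10.3% ± 4.88 in the labelled control libraries. The summed CPM of the lineage was 27.4 ± 1.96 against 148.5 ± 9.86. Without Pdgfrb, also left out with the outcome known, it was 5.49 ± 1.14 against 133 ± 6.04, a 24.2-fold lower mean (SD, n = 3 each).

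Of the 12 endothelial genes, 11 were lower and 1 was higher, where 34.1% of all genes tested were lower and 30.2% higher. Their median log2 fold change was -3.32, a smaller difference than -4.86 for the 18 fibroblast and matrix genes. For the 7 smooth muscle and pericyte genes it was -4.69. Each of these medians includes members that passed the filter through the labelled control libraries, Tagln, Myh11, Des and Cnn1 among the smooth muscle and pericyte genes. Kdr, the main signalling VEGF receptor, had 2.63, 2.70 and 1.69 CPM in libraries labelled Batf-deficient, against 36.96, 37.4 and 27.4 CPM in the labelled control libraries (log2 fold change -3.89, SE 0.26, adjusted p = 7.14e-08 by edgeR). Flt1, the VEGF receptor that acts largely as a decoy, had 3.05, 2.27 and 3.30 CPM against 27.2, 32.8 and 25.97 CPM (log2 fold change -3.29, SE 0.23, adjusted p = 1.42e-07 by edgeR). Neither receptor's groups overlapped, while the ratio of Kdr to Flt1 did, at 0.854 ± 0.338 against 1.19 ± 0.158. Cdh5 (VE-cadherin), the adhesion molecule of endothelial junctions, had 0.416, 0.568 and 0.885 CPM against 19.0, 20.8 and 16.1 CPM, and its log2 fold change of -4.80 (SE 0.34, adjusted p = 1.44e-07 by edgeR) was the lowest of the lineage.

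The angiopoietin receptor Tek (Tie2) and its partner Tie1 differed less. Tek had 1.25, 1.56 and 1.13 CPM against 8.202, 5.38 and 4.98 CPM (log2 fold change -2.24, SE 0.42, adjusted p = 0.000571 by edgeR), and Tie1 had 5.13, 4.12 and 3.94 CPM against 15.1, 7.44 and 19.3 CPM (log2 fold change -1.67, SE 0.36, adjusted p = 0.00146 by edgeR). For both, every labelled control value lay above every labelled Batf-deficient value. Endoglin (Eng), a TGF-beta co-receptor that is also found on activated macrophages, had 27.7, 25.4 and 30.5 CPM against 86.6, 58.05 and 92.4 CPM. Its log2 fold change of -1.50 (SE 0.18, adjusted p = 1.28e-05 by edgeR) was the smallest among the endothelial genes called lower.

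Genes of vessel specialisation were lower as well. Plvap, the diaphragm protein of fenestrated capillaries, had 7.76, 7.67 and 8.69 CPM against 83.9, 83.2 and 93.4 CPM (log2 fold change -3.42, SE 0.14, adjusted p = 1.08e-09 by edgeR). Emcn, a sialomucin of capillaries and veins, and Vwf, the clotting factor stored in endothelial granules, had log2 fold changes of -3.45 (SE 0.29) and -2.59 (SE 0.33), with edgeR adjusted p = 7.29e-07 and 2.40e-05. Lyve1, the hyaluronan receptor of lymphatic vessels and some macrophages, had 9.29, 7.11 and 8.61 CPM against 79.0, 91.6 and 83.2 CPM (log2 fold change -3.34, SE 0.15, adjusted p = 2.53e-09 by edgeR). Prox1, the transcription factor that sets lymphatic identity, had 5, 7 and 5 counts against 121, 123 and 123 (log2 fold change -3.61, SE 0.48, adjusted p = 3.44e-05 by edgeR). These blood and lymphatic genes were separated without overlap, where 36.5% of all genes tested were lower without overlap. Prox1 passed the filter through the labelled control libraries, so its separation was close to given in advance.

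Pecam1 (chromosome 11, 106654217 to 106750628, minus strand, mm10) was the exception in the endothelial list. It had 80.4, 74.03 and 89.9 CPM in libraries labelled Batf-deficient, against 52.8, 43.2 and 72.4 CPM in the labelled control libraries. The lowest value of the first group was close to the highest of the second, 74.03 against 72.4 CPM. The log2 fold change was 0.54 (SE 0.17, adjusted p = 0.0169 by edgeR) with TMM factors, 0.16 (adjusted p = 0.428) with library totals and -1.77 with panel scaling. The call also ended without Batf-deficient replicate 1 or 3 and without control replicate 1 or 2, with adjusted p-values up to 0.124. Pecam1 was 57.4% ± 1.41 of the endothelial counts, against 12.4% ± 2.58. The endothelial sum was 142 ± 11.5 against 448 ± 26.3 CPM, a 3.16-fold lower mean. Without Pecam1, also left out with the outcome known, it was 60.4 ± 4.07 against 392 ± 12.2 CPM, a 6.49-fold lower mean (SD, n = 3 each).

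The make-up of the module differed as well as its size, and shares within the module do not depend on how libraries are scaled. Vim, Pecam1 and Pdgfrb together took 75.5% ± 0.496 of the members' counts in the libraries labelled Batf-deficient and 8.16% ± 0.454 in the labelled control libraries. Over all 37 members, endothelial genes took 25.5% ± 1.30 against 17.7% ± 0.361. Fibroblast and matrix genes took 69.6% ± 1.47 against 76.5% ± 0.547, and smooth muscle and pericyte genes 4.92% ± 0.202 against 5.86% ± 0.188. Vim, Pecam1 and Pdgfrb are the members not called lower with TMM factors, so the set without them was chosen with the outcome known. Among the other 34 members, which held 922 to 1699 counts per library against 25040 to 46089, endothelial genes took 44.3% ± 1.69 against 16.9% ± 0.134. Fibroblast and matrix genes took 51.6% ± 1.31 against 77.4% ± 0.423, and smooth muscle and pericyte genes 4.03% ± 0.801 against 5.72% ± 0.311 (SD, n = 3 each). None of these shares overlapped between groups, and a two-sided exact permutation test of 3 against 3 libraries cannot give less than p = 0.1.

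Within the fibroblast and matrix genes other than Vim, the collagens took a smaller and the proteoglycans a larger share in the libraries labelled Batf-deficient. The 9 collagens took 27.7% ± 5.34 of these counts in the libraries labelled Batf-deficient, against 57.9% ± 1.29, and Sparc took 12.4% ± 1.70 against 24.5% ± 0.352. Dcn took 25.4% ± 1.04 against 9.41% ± 1.24, Lum 13.6% ± 1.36 against 0.791% ± 0.137, Fn1 9.21% ± 1.98 against 2.08% ± 0.281 and Mgp 7.90% ± 1.75 against 2.60% ± 0.256. In all 6 cases the groups did not overlap, whereas the shares of the single genes Col6a2, Col4a2, Fbn1 and Pdgfra did. Within the endothelial genes other than Pecam1, Eng took 46.2% ± 2.29 against 20.1% ± 4.13 and Tie1 7.28% ± 0.944 against 3.52% ± 1.44, while Plvap took 13.3% ± 0.843 against 22.1% ± 1.04, Lyve1 13.8% ± 1.02 against 21.6% ± 2.26 and Cdh5 1.03% ± 0.375 against 4.77% ± 0.750. The shares of Tek, Vwf and Prox1 overlapped.

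**Figure D3:**
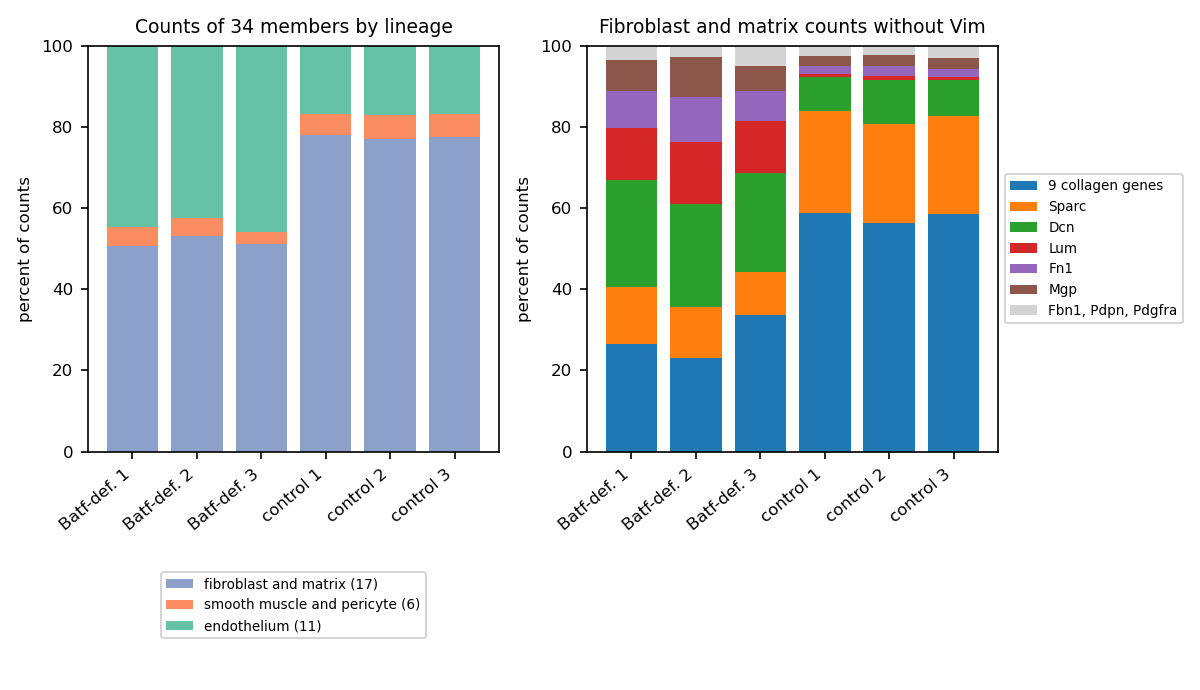
Left, percent of the counts of 34 members (without Vim, Pecam1 and Pdgfrb) that fell to each lineage in every library; right, percent of the fibroblast and matrix counts without Vim that fell to the 9 collagens and to single genes. The libraries labelled Batf-deficient, on the left of each panel, have about 44.3% endothelial counts against 16.9% and about 27.7% collagen counts against 57.9%. Over all 37 members, not drawn, the endothelial share was 25.5% against 17.7%.

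Per kb of exon, the order of the members differed between the groups. In the libraries labelled Batf-deficient the highest levels were those of Vim (66.8 CPM per kb), Pecam1 (13.1), Eng (6.89), Mgp (4.68), Plvap (4.05) and Pdgfrb (4.001). In the labelled control libraries they were those of Sparc (117 CPM per kb), Plvap (43.7), Mgp (39.4), Col1a1 (34.3), Lyve1 (28.99), Dcn (28.9) and Vim (28.6). Mgp, Plvap and Pdgfrb in the first order, and in the second Plvap and Mgp as well as Lyve1, Dcn and Vim, differ from the next gene of these by less than the spread between libraries.

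Position gave 1 contrast within a short stretch of chromosome 5. Pdgfra (75152292 to 75198215, plus strand), Kit (75574916 to 75656722, plus strand) and Kdr (75932827 to 75978458, minus strand) encode related receptor tyrosine kinases and follow each other with gaps of 376.7 and 276.1 kb (mm10). Kit, the stem cell factor receptor that ILC3s carry and that is no member of the module, had 661 ± 12.7 CPM in libraries labelled Batf-deficient and 82.3 ± 8.37 CPM in the labelled control libraries, a log2 fold change of 3.01 with TMM factors and 0.69 with panel scaling. Both of its neighbours were lower, as given above. There were 249.6, 250.2 and 385 counts of Kit per count of Kdr in the libraries labelled Batf-deficient, against 2.45, 1.98 and 3.00.

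Promoter sequence was available from RefSeq (GRCm38.p6, 250 bases before to 50 after each start) for 24 of the 37 members, in 26 windows. The AP-1 motif TGANTCA, searched on both strands because Batf belongs to the AP-1 family, was found in 1 of the 26 windows (3.85%), against 7.81% of 32851 windows of all genes. TATAAA was found in 4 (15.4%), those of Col3a1, Flt1, Prox1 and Vim, against 13.6%. The CArG box of smooth muscle genes was found in none, against 1.63%. Only 4 of the windows belong to smooth muscle and pericyte genes, too few to read anything from its absence. The window with the AP-1 motif and the TATAAA closest to the usual place of a TATA box are shown, with the motif in capitals.
Col6a1: gctgatgctgTGACTCActcagctttg
Flt1: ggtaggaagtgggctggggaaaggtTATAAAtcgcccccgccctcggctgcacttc
The first lies at chr10:76726118-76726144 and the second at chr5:147726012-147726067, both on the minus strand. The motifs lie 90 to 84 and 31 to 26 bases before the RefSeq start. In GENCODE M21 the Col6a1 gene begins further upstream, at 76726168, so the Col6a1 stretch lies within the gene as annotated there. A match is a run of letters and no measured site.

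Related genes outside the module were read from 7 lists of matrix, fibroblast, mural and endothelial function. They name 177 genes, of which 173 had a row and 154 were tested; Twist2, Casq2, Mkl1 and Erg were not analysed here. Of the 154, 117 were lower in the libraries labelled Batf-deficient (76.0%, against 34.1% of all genes) and 23 were higher with TMM factors, where 30.2% of all genes were, and of these 1, Hspb1, was higher with panel scaling. With that scaling 146 were lower, where 85.6% of all genes were.

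Of 20 tested collagen processing enzymes 13 were lower (34.1% of all genes were) and 5 higher, with a median log2 fold change of -1.29. The part that was higher did not exceed that of all genes, 30.2%. Loxl1, which cross-links elastin and collagen, Pcolce, the enhancer of procollagen cleavage, and Bmp1, the procollagen C-proteinase, had log2 fold changes of -4.41, -4.10 and -4.47, with 0.991 ± 0.278 against 20.5 ± 3.46 CPM for Loxl1. P4hb, a subunit of prolyl hydroxylase and a general disulfide isomerase, had -1.74. The prolyl hydroxylase subunits P4ha1 and P4ha2, the secretion factor Mia3 and the isomerase Ppib were higher with TMM factors (2.64, 1.74, 2.24 and 0.34), whereas with panel scaling P4ha1 had 0.32 and the other three were below 0.

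Other matrix genes resembled the members, with 25 of 27 lower and a median of -3.48. For this list and the next, 34.1% of all genes were lower and 30.2% higher. Thrombospondin Thbs1 had 8.2 ± 0.480 CPM against 137 ± 23.2, fibulin Fbln1 6.39 ± 1.76 against 89.2 ± 9.37, and the basement membrane proteoglycans Agrn and Hspg2 had log2 fold changes of -2.67 and -3.34. The laminin chain Lamc1 was higher, at 55.6 ± 4.83 against 27.8 ± 1.62 CPM (1.0 with TMM factors, -1.31 with panel scaling). Of 12 matrix proteases and inhibitors 8 were lower and 2 higher (median -2.22): the metalloproteinases Mmp2, Mmp9 and Mmp14 and the inhibitor Timp3 had -3.87, -2.67, -1.76 and -2.77, and Timp2 and Mmp23 had 1.71 and 0.90 with TMM factors and -0.60 and -1.41 with panel scaling. Mmp9 and Thbs1 are also made by myeloid cells and platelets.

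Of 17 tested genes of fibroblast identity 14 were lower and 2 higher (median -2.63). For this list and the next, 34.1% of all genes were lower and 30.2% higher. The chemokine Cxcl12 had 1.52 ± 0.800 CPM against 27.98 ± 9.07, dermatopontin (Dpt) 1.17 ± 0.470 against 22.8 ± 6.58, and the actin-severing Gsn and the sialomucin Cd34 had log2 fold changes of -2.43 and -2.80. Lsp1, a leukocyte protein, and Pi16 were higher with TMM factors (1.57 and 1.82) and below 0 with panel scaling (-0.74 and -0.48). Of 21 contractile and mural genes 14 were lower and 2 higher (median -3.04). Myosin light chain kinase (Mylk) had -5.72 and 1.85 ± 0.492 against 96.3 ± 10.4 CPM, tropomyosin Tpm1 had -3.79, alpha-actinin Actn1 had -3.93 and the myosin light chain Myl9 had -4.46. The small heat shock protein Hspb1 was higher, at 319 ± 25.2 against 23.1 ± 4.55 CPM (3.78 with TMM factors, 1.47 with panel scaling), and the Notch target Heyl had 2.23 and -0.06.

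Of 34 endothelial regulators 29 were lower and 4 higher (median -2.80), where 34.1% of all genes were lower and 30.2% higher. The water channel Aqp1 had 5.03 ± 0.847 CPM against 82.6 ± 7.34, the lymphatic matrix protein Reln 2.70 ± 0.739 against 41.6 ± 7.33, the lymphoid chemokine Ccl21a 76.3 ± 6.45 against 283 ± 31.6, and the transcription factor Ets2, which many cell types use, 37.7 ± 3.33 against 251 ± 10.6. Ccl21a has near-identical copies in the mouse genome, so its counts may be split between them. Ets1, Fli1, Klf2 and Icam2, which lymphocytes also use, were higher with TMM factors (2.31, 1.81, 1.40 and 0.82), while with panel scaling Ets1, itself in the panel, was at 0.00 and the others at -0.50, -0.91 and -1.49.

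Of 24 growth factors and receptors 15 were lower (34.1% of all genes were) and 7 higher (median -2.46). The part that was higher was close to that of all genes, 30.2%. The PDGF chain Pdgfa had 2.79 ± 0.429 CPM against 90.1 ± 10.3, the Notch ligand Dll4 1.64 ± 0.576 against 18.4 ± 3.99, and the matricellular Ccn1 6.06 ± 0.576 against 49.8 ± 11.5. Placental growth factor (Pgf) had 1 count over the group labelled Batf-deficient and 403 in the labelled control libraries, a ratio of labelled control over labelled Batf-deficient of 227 (95% counting interval 40.5 to 8993.5). Notch1, Tgfb1, Tgfbr2 and the ligand Jag1 were higher with TMM factors (2.43, 1.27, 1.07 and 0.97), whereas with panel scaling Notch1 had 0.11 and the others -1.05, -1.24 and -1.35.

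**Figure D4:**
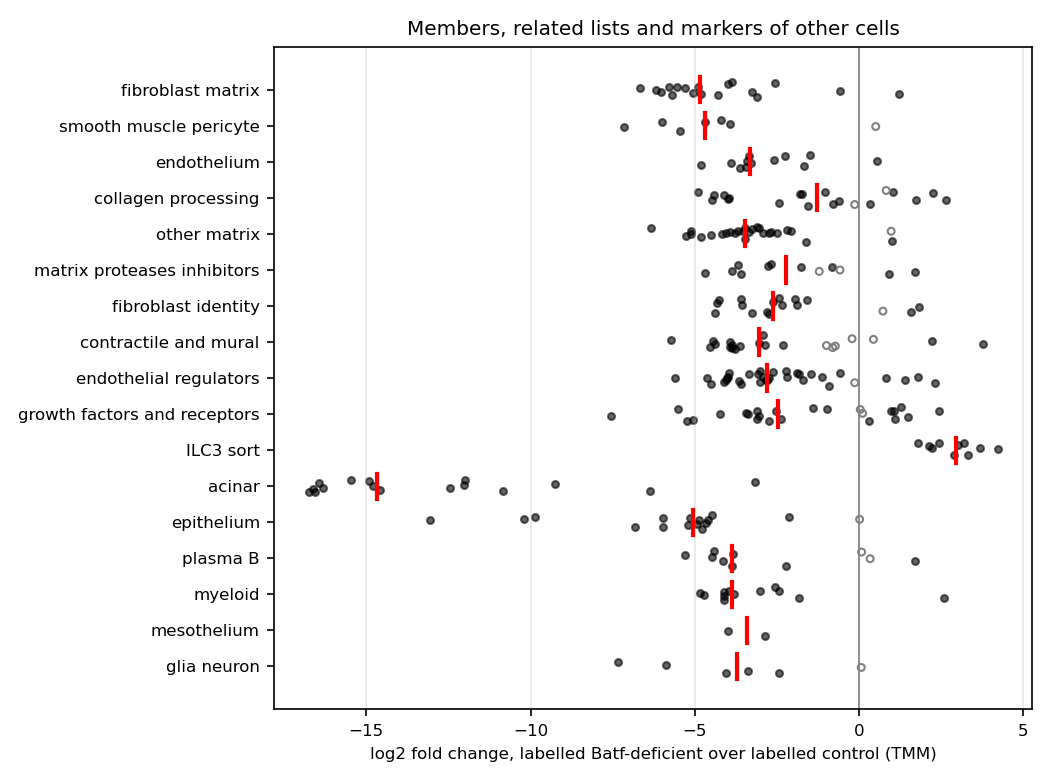
Log2 fold change, labelled Batf-deficient over labelled control with TMM factors, of every tested gene of the 3 member lineages, the 7 related lists and the 7 marker lists of other cells (filled circles called, open circles not called, red bars medians; genes with no count in a group are drawn at their bound). The medians of the member lineages lie at -4.86, -4.69 and -3.32, between those of acinar (-14.69) and ILC3 markers (2.94). The other marker lists lie in a similar range: epithelial -5.04, myeloid -3.88, plasma and B cell -3.86, glial and neuronal -3.70, mesothelial -3.42.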

How the data were processed

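The values are raw read counts per gene symbol, whole numbers deposited by the authors in 1 table for all 6 libraries, made by Smart-seq2 per the labels' protocols. Per the submitters' processing notes, reads were placed on mm10. For the aligner, counter, annotation and strand setting, the processing is not given in the sources used here. The protocol has no molecular identifiers, so intervals and floors cover counting error only.

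Counts were tested in R 4.3.3 with edgeR 4.0.16: filterByExpr with a minimum count of 10, TMM factors (0.857 to 0.914 for the libraries labelled Batf-deficient, 1.115 to 1.172 for the labelled control libraries), glmQLFit with robust estimation and a two-sided glmQLFTest on group alone, with Benjamini-Hochberg adjustment over all genes tested. The steps were checked on simulated counts in which most genes did not differ between groups. That check therefore does not cover the choice of scaling for these libraries. CPM uses TMM-scaled library sizes, and shares of counts use library totals. Levels per kb use the exon union of GENCODE M21 (also mm10), which gave the coordinates too. A gene with no count in a group is bounded with 3 counts over the group. A gene with 1 to 3 counts in a group is given as a ratio of counts per scaled total with an exact 95% interval. p-values measure the spread between the libraries of a group, which may be partly technical.

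Alternatives were library totals, DESeq2 1.42.0 size factors or Wald test, limma 3.58.1 voom, no low-count filter, scaling on 19 lymphoid genes, a replicate block, leaving out each library, and summing Batf-deficient replicates 1 and 2. All members were named. Of each related list, up to 4 genes with the lowest p in the majority direction and up to 4 called the other way were named, if at least 1 CPM in a group. The members, the lists and the lymphoid panel were chosen with earlier results of these data known. Some markers of other cells are not reported here by name.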

Additional observations from a re-analysis of the deposited data

How the results depend on the processing

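Calls of lower members were 33 or 34 of 37 under every alternative except panel scaling (37), against 34. Panel scaling gave 13057 genes lower in all and 341 higher, 0 members higher, 1 gene of the related lists higher, and reversed Vim (-1.09), Pdgfrb (-1.81) and Pecam1 (-1.77) on the log2 scale. Library totals gave 3048 genes higher in all and 1 member higher (Vim); leaving out 1 library at a time gave 1 to 2. The log2 ratio of summed CPM, -2.32 for fibroblast and matrix, -2.44 for smooth muscle and pericyte and -1.66 for endothelial genes, was -2.70, -2.82 and -2.04 with library totals and -4.64, -4.75 and -3.97 with panel scaling, and -2.37 for fibroblast and matrix genes with DESeq2 size factors. Lum lost its call with no low-count filter (adjusted p = 0.0556), with the replicate block (0.0564) and with Batf-deficient replicates 1 and 2 summed (0.0740, edgeR). Same-numbered libraries did not deviate together (correlations 0.004, 0.021 and 0.03), so the numbers were not taken as pairs; with the replicate block 35 members were called (36 without it) and 9694 genes in all (9821 without it). The causes of these shifts were not tested. Depth limits the members with few counts in the libraries labelled Batf-deficient: 3 counts are 0.241 to 0.426 CPM there, and for Des only a bound can be given.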
